A study of Mus musculus with 3 samples.

Results

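The genes described here are 40 genes of G2 phase and mitosis: mitotic cyclins and kinases, kinesins, kinetochore and checkpoint proteins, and proteins of the spindle and of cytokinesis. A gene was measured if at least 1 probe set carried its symbol and no other, which held for 39 of the 40 members, out of 18194 genes with such a probe set. Ccnb1, which encodes cyclin B1, had none and has no level here. Where a gene had several probe sets, the one with the highest mean signal was used and compared with the others. All 39 measured members passed the filter on low signal, as did 11617 genes in all.

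RNA came from WR19L, a mouse T-lymphoma cell line of BALB/c origin, on Affymetrix arrays with 1 array per group. The first group is DKO cells, flippase-deficient WR19L cells, that stably express the Q84E mutant of ATP11A. The second is DKO cells that stably express wild-type human ATP11A, and the last is parental WR19L. ATP11A is a P4-ATPase of the plasma membrane that flips phospholipids to the cytoplasmic side. All cells were grown without treatment in RPMI1640 medium with fetal calf serum. DKO cells without a transgene were not analysed here, so in ratios over parental cells the knockout, the transgene and the derivation of the line cannot be told apart. The labels do not say whether a transgenic line is 1 clone or a pool.

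Genes of this group are transcribed late in the cell cycle. In G1 and quiescent cells the DREAM complex holds them down, and from S phase on MYBL2 (B-MYB) and FOXM1 take its place on the promoter. The DNA element that DREAM and FOXM1 complexes bind is the cell cycle genes homology region (CHR), usually next to CCAAT boxes bound by NF-Y. Cyclin B with CDK1 then acts, Aurora and Polo-like kinases build the spindle, the checkpoint holds anaphase until all kinetochores are attached, and the anaphase-promoting complex (APC/C) ends it. In a growing lymphoma line these transcripts are abundant, and the share of cells in G2 and mitosis sets part of their level.

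The promoters of 5 members are shown because they carry the sequence feature that most members share. That feature was not used to choose the members, but it was used to pick these 5. They are the first 5 in the member list with a CHR match, Ccnb1 among them although it has no signal here, from 220 bases before to 30 bases after the transcription start, on the strand of the gene, from RefSeq (GRCm38.p6). Capitals mark CHR matches (TTTGAA or TTTAAA, read on either strand) and CCAAT boxes (also read as ATTGG).
Ccnb1 (chr13:100786457-100786706, minus strand): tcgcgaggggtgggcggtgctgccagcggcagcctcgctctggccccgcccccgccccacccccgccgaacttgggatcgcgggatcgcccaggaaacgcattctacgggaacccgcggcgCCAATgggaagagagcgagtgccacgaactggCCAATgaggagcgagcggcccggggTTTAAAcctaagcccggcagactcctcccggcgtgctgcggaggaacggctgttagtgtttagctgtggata
Ccnb2 (chr9:70421525-70421774, minus strand): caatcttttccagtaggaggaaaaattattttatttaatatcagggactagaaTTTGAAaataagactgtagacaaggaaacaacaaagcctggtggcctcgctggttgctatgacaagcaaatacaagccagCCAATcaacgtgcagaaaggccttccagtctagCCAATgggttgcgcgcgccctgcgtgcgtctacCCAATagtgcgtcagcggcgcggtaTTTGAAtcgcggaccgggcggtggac
Cdk1 (chr10:69352883-69353132, minus strand): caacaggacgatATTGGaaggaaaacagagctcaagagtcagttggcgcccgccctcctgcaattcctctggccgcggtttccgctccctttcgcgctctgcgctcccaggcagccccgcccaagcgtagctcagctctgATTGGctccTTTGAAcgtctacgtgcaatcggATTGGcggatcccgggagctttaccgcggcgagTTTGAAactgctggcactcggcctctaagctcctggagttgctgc
Cdc20 (chr4:118437314-118437563, minus strand): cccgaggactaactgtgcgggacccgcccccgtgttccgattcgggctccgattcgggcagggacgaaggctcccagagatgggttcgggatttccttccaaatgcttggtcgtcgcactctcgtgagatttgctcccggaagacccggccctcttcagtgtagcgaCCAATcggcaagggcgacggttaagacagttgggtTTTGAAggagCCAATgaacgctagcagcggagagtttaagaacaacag
Aurka (chr2:172370541-172370790, minus strand): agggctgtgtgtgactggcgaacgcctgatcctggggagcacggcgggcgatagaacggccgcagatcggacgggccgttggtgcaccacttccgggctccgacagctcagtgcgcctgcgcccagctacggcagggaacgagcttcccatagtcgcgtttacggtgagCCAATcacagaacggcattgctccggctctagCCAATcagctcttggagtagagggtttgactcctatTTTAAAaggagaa

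Of the 40 members, 34 had a promoter in the RefSeq table, in 36 windows of 250 bases before to 50 bases after an annotated start. Ccna2, Cdc25c, Aurkb, Kif20a, Tpx2 and Incenp were not found there by symbol. TTTGAA or TTTAAA on either strand was present in 28 of the 34 genes and in 30 of the 36 windows, 83.3%, against 27.6% of all 32851 windows in the table and 25% of the 21262 windows of protein-coding genes. TTTGAA alone was found in 75% of member windows and 17.9% of all windows. A CHR match lay within 50 bases of the start in 27 of the 36 windows, against 8.28% of all windows. CCAAT on either strand was present in 28 windows, 77.8%, against 37.4% of all, and 19 windows held at least 2 copies, against 11.7% of all. Both elements occurred together in 25 windows, 69.4%, against 10.7% of all. The E2F-type motifs TTTGGCGC, TTTCCCGC and GGCGGGAA, searched on both strands, matched 0 member windows and 3.21% of all. TTTAAA reads the same on both strands, no motif contains another, and neighbouring matches can share bases. The 2 windows of Ect2 overlap each other, as do those of Prc1, so the windows are not all separate sequences. A match describes letters in a window and does not show that a factor binds there. The 27 measured members with a CHR match had a median log2 ratio of 0.076 for Q84E over wild-type ATP11A, 0.16 for wild-type ATP11A over parental and 0.23 for Q84E over parental cells, and the 6 without one had 0.15, 0.098 and 0.21 in that order. The 25 with a CCAAT box had 0.091, 0.11 and 0.19 in the same order, and the 8 without one had 0.032, 0.30 and 0.31. With so few members lacking a motif, these differences were not tested. The measured members lie on 15 chromosomes, with 7 on chromosome 2.

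**Figure D1:**
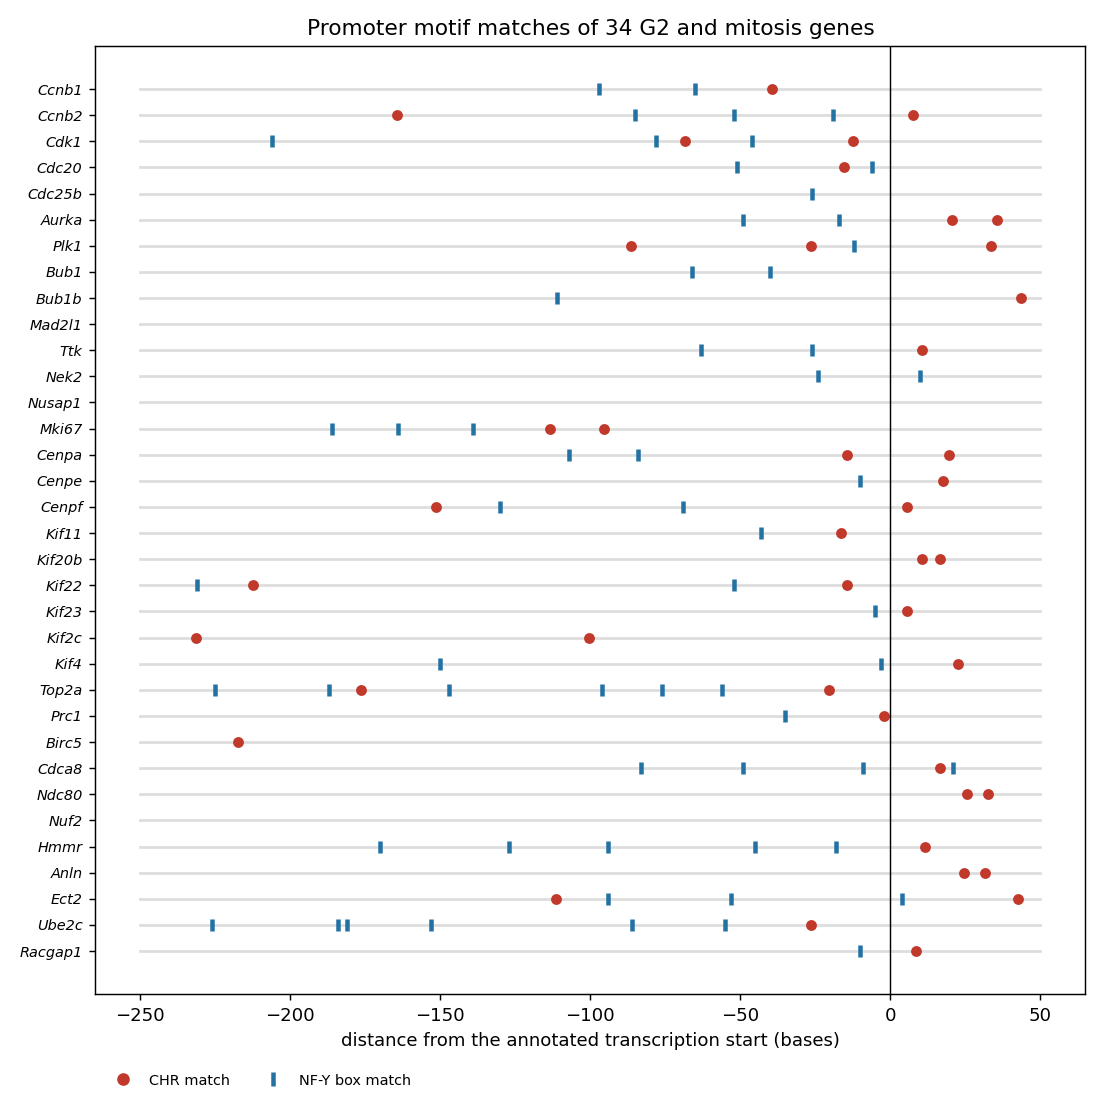
Position of CHR matches (points) and NF-Y (CCAAT) box matches (bars) along the promoter of each of 34 members (the first listed window of a gene), in bases from the annotated transcription start (vertical line). CHR matches gather within 50 bases of the start, in 27 of the 36 windows, and NF-Y boxes lie mostly upstream of them; Mad2l1, Nusap1 and Nuf2 have neither.

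All values are array signals on the linear scale to which the authors had brought each array, with 1 trimmed mean for all 3. A single array per group gives neither a test nor an SD, and the spread between cultures is unknown. The probe set error used here instead is the SD by which log2 ratios from 2 probe sets of the same gene differ, divided to stand for a single one. That error was 0.099 to 0.11 for 1021 genes above the 90th percentile of signal, where 31 members lay, and 0.18 to 0.19 for 1559 genes from the 75th percentile up to the 90th, where the other 8 lay. A ratio is counted below if it is at least 2-fold, at least 1.5-fold, or past 2 such errors of its signal class, and each count is set beside the share of all 11617 compared genes past the same limit. The arrays differed at low signal, where the median probe set, used as the floor, had a signal of 55.5 for Q84E ATP11A, 50.5 for wild-type ATP11A and 50.3 for parental cells. At the 90th percentile the signal was 1758 for Q84E ATP11A, 1759.9 for wild-type ATP11A and 1774 for parental cells. Of 10 T cell markers with a probe set, 8 lay above the median probe set on each array, while Cd3e and Cd5 lay under it on all 3. For B cell markers 4, 2 and 4 of 6 did so on the Q84E, wild-type ATP11A and parental arrays, for myeloid markers 3, 2 and 3 of 7 in that order, for erythroid markers 1 of 3 and for fibroblast markers 1 of 5 on each. The summed signal of the T cell list was 36223 for Q84E ATP11A, 31802 for wild-type ATP11A and 36671 for parental cells, and that of the other lists lay between 92.9 and 599.

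Most G2 and mitosis genes were lowest in parental cells, and the differences were small. Of the 39 members, 33 had their lowest signal on the parental array, against 39.1% of all compared genes, or 25 members, against 28.1%, with the arrays set to a common median. The highest signal was on the Q84E array in 31 members, against 42.9% of all genes, and on the wild-type ATP11A array in 7, against 27.2%; with a common median it was on the Q84E array in 15, against 24.5%. Ccna2 was the 1 member highest on the parental array, against 29.8% of all genes. In 28 members the signal was highest with Q84E ATP11A, next with wild-type ATP11A and lowest in parental cells, an order found in 25.2% of all genes; with a common median, 12 members had that order, against 14% of all. Only Ccna2 had the opposite order on the deposited scale, against 17.6% of all. More cells in G2 and mitosis and more RNA of these genes per cell cannot be told apart in such RNA.

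For wild-type ATP11A over parental cells the members had a median log2 ratio of 0.12, against 0.0057 for all genes and 0.0074 for the 6628 genes at or above the 75th percentile of signal. The ratio was above 0 in 35 of 39 members, against 54.2% of all genes and 52.4% of the brighter ones. No member was 1.5-fold apart in either direction, while 3.5% of all genes were at least 1.5-fold higher and 3.66% at least 1.5-fold lower. Among the brighter genes these shares were only 0.86% and 1.1%. Past 2 errors, 8 members were higher, against 5.72% of all genes, and 0 were lower, against 5.52%; of the brighter genes 6.02% were higher and 5.4% lower. The 8 were Kif4, Cdc25c, Anln, Nusap1, Prc1, Kif2c, Ect2 and Cdc20. Nek2 at -0.12, Kif22 at -0.098, Birc5 at -0.015 and Ccna2 at -0.015 were the members below 0.

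For Q84E over wild-type ATP11A cells the median was 0.076, against 0.046 for all genes and 0.0074 for the brighter genes, and it turned to -0.060 when the arrays were set to a common median. That scaling moved the median of all genes for this ratio by -0.14, to -0.091, so relative to all genes the members lay 0.030 higher under both scalings and 0.11 higher with quantile normalization. Above 0 were 31 members, against 58.1% of all genes and 51.9% of the brighter ones, or 15 with a common median, against 33.2% of all. Above the median of all genes were 22 members under both scalings and 34 with quantile normalization. Past 2 errors, 9 members were higher, against 9.63% of all genes, and 0 were lower, against 5.6%; of the brighter genes 8.95% were higher and 7.11% lower. With a common median 3 were higher and 3 were lower, against 4.58% and 15.8%. The 9 were Nusap1, Cenpf, Mki67, Cdc25b, Nek2, Kif22, Top2a, Aurkb and Prc1. Of these only Nusap1, Cenpf and Mki67 stayed past 2 errors with a common median, and the 3 members lower under that scaling were Kif20b, Ect2 and Tpx2. No member was 1.5-fold apart, while 5.84% of all genes were at least 1.5-fold higher and 1.97% lower. Among the brighter genes these shares were only 1.51% and 0.483%. Kif20b, at -0.35, was the lowest member and stayed just within 2 errors of its signal class.

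For Q84E over parental cells, which is the sum of the other 2 log2 ratios and shares their arrays, the median was 0.23, against 0.068 for all genes and 0.019 for the brighter ones. With a common median it was 0.092, against -0.075 for all genes. Above 0 were 36 members, against 59.7% of all genes and 53.6% of the brighter ones. Past 2 errors, 18 members were higher, against 10.5% of all genes, and 0 were lower, against 6.8%; of the brighter genes 11.1% were higher and 9.11% lower. With a common median 6 were higher, against 5.25% of all genes: Cdc25c, Nusap1, Cenpf, Mki67, Prc1 and Kif2c. At least 1.5-fold higher were 2 members, Cdc25c at 1.68-fold and Nusap1 at 1.66-fold, against 7.38% of all genes and 2.85% of the brighter ones. No member was 1.5-fold lower, against 2.96% of all genes and 1.43% of the brighter ones. In none of the 3 comparisons was a member 2-fold apart. Of all genes, 1.05% were at least 2-fold higher and 0.318% lower for Q84E over wild-type ATP11A, 0.56% and 0.912% for wild-type ATP11A over parental, and 1.64% and 0.792% for Q84E over parental cells. Of the brighter genes, at most 0.588% were past that limit in either direction in any comparison.

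**Figure D2:**
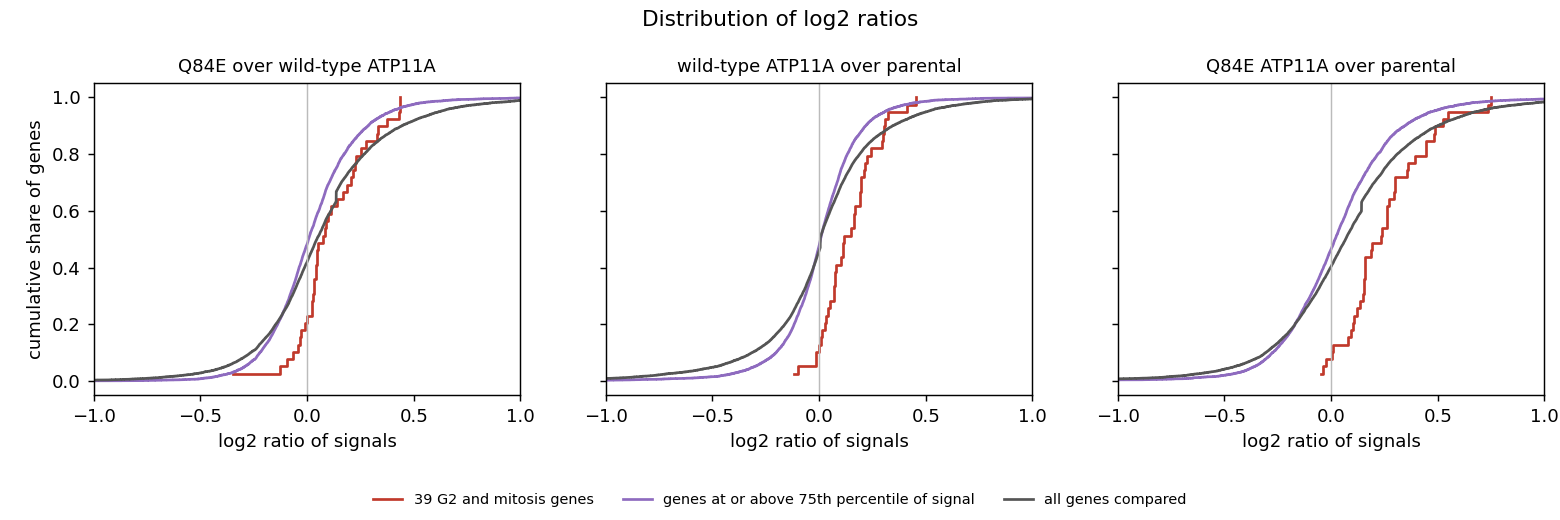
Cumulative share of genes (vertical axis) against the log2 ratio of signals (horizontal axis) for the 39 members, for genes at or above the 75th percentile of signal and for all 11617 compared genes, in the 3 comparisons. In both comparisons with parental cells the curve of the members lies to the right of both others through its middle, with medians of 0.12 and 0.23; for Q84E over wild-type ATP11A it lies close to that of all genes, with medians of 0.076 and 0.046, and the sign of its median turns with a common median. The steps in the curve of all genes come from genes under the floor on both arrays.

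In the account by role that follows, a value is that of the brightest probe set of a gene on the deposited scale unless another is named. Cyclin B with CDK1 starts mitosis once CDC25 phosphatases activate it. Ccna2, which encodes cyclin A2 of S and G2 phase, had signals of 7254 with Q84E ATP11A, 7408 with wild-type ATP11A and 7487 in parental cells. Ccnb2, which encodes cyclin B2, had 6479 (Q84E), 5868 (wild-type ATP11A) and 5805 (parental). Cdk1, the kinase that drives entry into mitosis, had 7944 with Q84E, 7719 with wild-type ATP11A and 6951 in the parental line. The 3 genes thus differed little, with log2 ratios of Q84E over parental of -0.046 for Ccna2, 0.16 for Ccnb2 and 0.19 for Cdk1, all within 2 errors. The CDC25 phosphatases remove the inhibitory phosphates from CDK1 and lay further apart. Cdc25b had 1447 with Q84E ATP11A, 1117 with wild-type ATP11A and 1063 in parental cells, so the Q84E array stood out and the other two were close. Cdc25c had 619.8 in Q84E, 492 in wild-type ATP11A and 369 in parental cells, in even steps, with log2 ratios of 0.33 for Q84E over wild-type ATP11A, 0.41 for wild-type ATP11A over parental and 0.75 for Q84E over parental cells, the highest of the members in that last comparison. A dimmer Cdc25c probe set, at 394 (Q84E), 419.9 (wild-type ATP11A) and 338 (parental), gave -0.090 for the first ratio, 0.31 for the second and 0.22 for the last.

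Among the 4 mitotic kinases only Aurkb and Nek2 had a ratio past 2 errors on the deposited scale, and neither did with a common median. Aurka, the Aurora kinase of centrosomes and spindle poles, had 3336 with Q84E ATP11A, 3352 with wild-type ATP11A and 3328 in parental cells, so its 3 levels were alike. Plk1, Polo-like kinase 1, had 4004 with Q84E, 3859 with wild-type ATP11A and 3789.8 in the parental line and also lay within 2 errors in each comparison. Aurkb, the Aurora kinase of the chromosomal passenger complex, had 3026 in Q84E, 2604 in wild-type ATP11A and 2468 in parental cells, with log2 ratios of 0.22 for Q84E over wild-type ATP11A and 0.29 for Q84E over parental, both past 2 errors, or 0.080 and 0.15 with a common median. Its other probe set gave 0.041 for Q84E over wild-type ATP11A and 0.31 for Q84E over parental. Nek2, a centrosome kinase, had 3446 (Q84E), 2843 (wild-type ATP11A) and 3086 (parental), so it was lowest with wild-type ATP11A. Its log2 ratio of Q84E over wild-type ATP11A was 0.28, and the other 2 Nek2 probe sets above the floor on those arrays gave 0.48 and 0.79.

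The APC/C ubiquitin ligase ends mitosis by marking cyclin B and securin for degradation. Cdc20, its activator in mitosis and the target of the checkpoint, had 14606 with Q84E ATP11A, 14391 with wild-type ATP11A and 12418 in parental cells. Ube2c, the ubiquitin-conjugating enzyme that works with it, had 10146 with Q84E, 9472 with wild-type ATP11A and 8255 in the parental line. In both genes the parental array was the low one, also with a common median, and the 2 DKO arrays lay closer together. The log2 ratio of wild-type ATP11A over parental was 0.21 for Cdc20, past 2 errors, and 0.20 for Ube2c, just within them.

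Of the 9 genes of the kinetochore and its checkpoint, all were higher in both DKO lines than in parental cells. Of all genes, 39.1% were lowest on the parental array. With a common median 3 of the 9, Bub1, Bub1b and Cenpa, were lower for Q84E over parental. The 9 genes had a median log2 ratio of 0.16 for wild-type ATP11A over parental and 0.26 for Q84E over parental cells. Their median of Q84E over wild-type ATP11A was 0.044, close to the 0.046 of all genes, and it turned to -0.093 with a common median. On the deposited scale 7 were above 0 and 2 below for that ratio, while 58.1% of all genes were above 0. The checkpoint proteins other than Ttk differed little. Bub1, a checkpoint kinase, had 4484 with Q84E ATP11A, 4387 with wild-type ATP11A and 4162 in parental cells. Bub1b, which encodes the checkpoint protein BUBR1, had 3619 in Q84E, 3686 in wild-type ATP11A and 3295 in parental cells. Mad2l1, which encodes the CDC20 inhibitor MAD2, had 10721 (Q84E), 10498 (wild-type ATP11A) and 9664 (parental). These 3 stayed within 2 errors in every comparison. Ttk, which encodes the checkpoint kinase MPS1, had 2119 with Q84E, 1989.8 with wild-type ATP11A and 1768 in the parental line, and its ratio of Q84E over parental, 0.26, was past them. A dimmer Ttk probe set, at 188 (Q84E), 102 (wild-type ATP11A) and 103 (parental), gave 0.89 for Q84E over wild-type ATP11A, beside 0.091, and 0.88 for Q84E over parental. Cenpa, the centromeric histone H3 variant, had 6257 in Q84E, 6069 in wild-type ATP11A and 5744 in parental cells. A dimmer Cenpa probe set above the floor gave 0.44 for Q84E over wild-type ATP11A and 0.63 for Q84E over parental, beside 0.044 and 0.12.

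The large coiled-coil proteins of the outer kinetochore stood further apart. Cenpf had 3712 with Q84E ATP11A, 2745 with wild-type ATP11A and 2542 in parental cells, so the Q84E array was alone at the top. Its log2 ratio of Q84E over wild-type ATP11A was 0.44, and its dimmer probe sets gave 0.76 and 0.36. Cenpe, a kinesin that moves chromosomes to the spindle equator, had 2068.5 (Q84E), 1650.1 (wild-type ATP11A) and 1474 (parental), a log2 ratio of 0.33 for Q84E over wild-type ATP11A that lay within 2 errors. The microtubule-binding NDC80 complex was represented by 2 subunits. Ndc80 had 779 with Q84E, 666 with wild-type ATP11A and 541 in the parental line, in even steps. Nuf2 had 1789 in Q84E, 1844 in wild-type ATP11A and 1492 in parental cells, so its 2 DKO levels were close and the parental level was low, with 0.31 for wild-type ATP11A over parental.

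The chromosomal passenger complex, which corrects faulty kinetochore attachments with Aurora B as its kinase, showed small differences. Birc5, which encodes survivin, had 6032 with Q84E ATP11A, 5937 with wild-type ATP11A and 6000.4 in parental cells. Cdca8, which encodes borealin, had 8447 (Q84E), 8432 (wild-type ATP11A) and 7859.6 (parental). Incenp, the scaffold of the complex, had 7260.4 with Q84E, 6849.6 with wild-type ATP11A and 6531 in the parental line. By their brightest probe sets none of the 3 was past 2 errors in any comparison, and the highest ratio was 0.15, of Incenp for Q84E over parental. Dimmer Incenp probe sets above the floor lay further apart, with 0.27, 0.19 and 0.77 for Q84E over wild-type ATP11A and 0.14, 0.25 and 0.41 for Q84E over parental.

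The 7 kinesins showed 3 patterns by their brightest probe sets. In 4 of them the order was graded with the parental array lowest, though with a common median Kif23, Kif20a and Kif11 were lower for Q84E over wild-type ATP11A and only Kif2c stayed graded. The kinesin median for Q84E over wild-type ATP11A was 0.047, or -0.090 with a common median. Kif2c, a microtubule depolymerase at centromeres, had 3894 with Q84E ATP11A, 3464 with wild-type ATP11A and 2967 in parental cells, and its 2 next brightest probe sets gave log2 ratios of Q84E over parental of 0.42 and 0.37, beside 0.39. Kif23, a kinesin of the centralspindlin complex, had 2185 in Q84E, 2024 in wild-type ATP11A and 1774 in parental cells. Kif20a, a kinesin of the central spindle, had 2146 (Q84E), 2079 (wild-type ATP11A) and 1818 (parental). Kif11, the motor that separates spindle poles, had 1450.0 with Q84E, 1404 with wild-type ATP11A and 1298 in the parental line, and its other 2 probe sets put the difference between the DKO lines higher, at 0.34 each, against 0.047. In 2 others the wild-type ATP11A array was the highest. Kif4, a chromosome-bound kinesin on the X chromosome, had 821 in Q84E, 876 in wild-type ATP11A and 639 in parental cells, and its ratio of wild-type ATP11A over parental, 0.45, was the highest of all members in that comparison. Kif20b had 880.2 (Q84E), 1119 (wild-type ATP11A) and 904 (parental), with the Q84E and parental levels alike, and its other probe set above the floor gave ratios within 0.050 of 0. Kif22, a kinesin that binds chromosome arms, had 9152 with Q84E, 7690.0 with wild-type ATP11A and 8231 in the parental line, so wild-type ATP11A was lowest. Both other Kif22 probe sets had the parental array lowest, at log2 ratios of wild-type ATP11A over parental of 0.24 and 0.045, against -0.098. For Q84E over wild-type ATP11A they gave 0.12 each, within 2 errors, against 0.25 by the brightest probe set.

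Spindle proteins included Nusap1, which with Cenpf and Mki67 stood furthest apart between the DKO lines by its brightest probe set. Nusap1, which bundles microtubules near chromosomes, had 6118 with Q84E ATP11A, 4517 with wild-type ATP11A and 3679.8 in parental cells. All 3 ratios of Nusap1 were past 2 errors, at 0.44 for Q84E over wild-type ATP11A, 0.30 for wild-type ATP11A over parental and 0.73 for Q84E over parental cells. A second Nusap1 probe set, at 116 in Q84E, 111 in wild-type ATP11A and 78.4 in parental cells, gave 0.062 for the first ratio, 0.50 for the second and 0.56 for the last. Prc1, which crosslinks microtubules of the central spindle, had 3219 (Q84E), 2792 (wild-type ATP11A) and 2362 (parental), and its 3 ratios were past 2 errors too. The other Prc1 probe set, at 1849 with Q84E, 1805 with wild-type ATP11A and 1897 in the parental line, showed no such order and gave -0.037 for Q84E over parental. Hmmr, a spindle-associated hyaluronan receptor, had 2633 in Q84E, 2312 in wild-type ATP11A and 2309 in parental cells, with the wild-type ATP11A and parental levels alike. Tpx2, the activator of Aurora A, had 3017 (Q84E), 3156 (wild-type ATP11A) and 3066 (parental), within 2 errors in every comparison by that probe set. Its dimmer probe sets gave -0.18, 0.62 and -0.047 for Q84E over wild-type ATP11A.

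In the 3 genes of cytokinesis the parental array was the low one, except that with a common median Ect2 was lowest on the Q84E array. Anln, which encodes the actin-binding protein anillin, had 2312 with Q84E ATP11A, 2260.35 with wild-type ATP11A and 1804 in parental cells. Its second probe set was dim, at 77.9 with Q84E, 79.5 with wild-type ATP11A and 98.7 in the parental line, and ran the other way. Racgap1, a subunit of centralspindlin, had 4594 in Q84E, 4357 in wild-type ATP11A and 3802 in parental cells, and its second probe set gave a log2 ratio of 0.21 for wild-type ATP11A over parental, beside 0.20. Ect2, the RhoA exchange factor of the cleavage furrow, had 2323 (Q84E), 2535 (wild-type ATP11A) and 2181 (parental), highest with wild-type ATP11A. The 2 chromatin genes differed mainly between the DKO lines. Mki67, which encodes the proliferation marker Ki-67 that coats mitotic chromosomes, had 10579 with Q84E ATP11A, 7847 with wild-type ATP11A and 7570.1 in parental cells. Top2a, which encodes the topoisomerase that untangles sister chromatids, had 11645 with Q84E, 9937 with wild-type ATP11A and 9707 in the parental line. In both, the Q84E array stood above 2 close values, with log2 ratios of Q84E over wild-type ATP11A of 0.43 for Mki67 and 0.23 for Top2a. With a common median these were 0.29 for Mki67 and 0.092 for Top2a, and only that of Mki67 was past 2 errors.

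**Figure D3:**
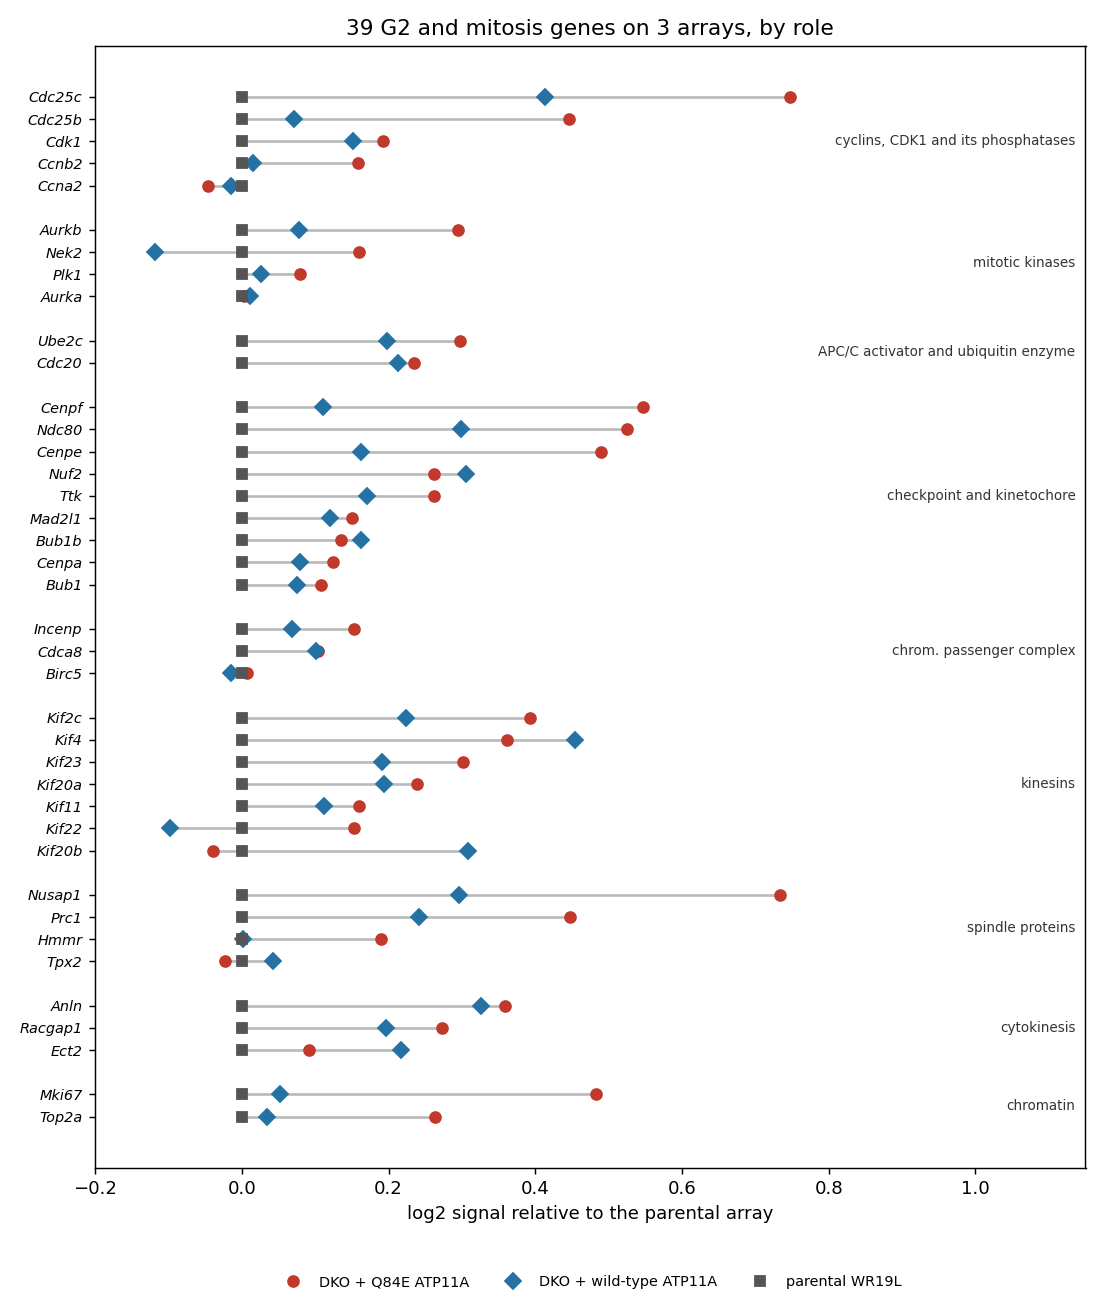
Log2 signal of each of the 39 measured members relative to the parental array, grouped by role, with 1 array per group and so no error bars. In 33 of 39 genes the parental array is lowest, and Cdc25c and Nusap1 reach 0.75 and 0.73 on the Q84E array; the position of the Q84E points moves down by about 0.14 for all genes if the arrays are set to a common median, and with that scaling 15 of 39 members are highest there.

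The other probe sets of the members gave a partial check. Of the 39 members 25 had at least 2 probe sets above the floor on all 3 arrays, with 39 probe sets beside the brightest ones. These 39 had a median log2 ratio of 0.24 for Q84E over parental, with 32 above 0, beside 0.23 for the brightest probe sets. Their median for Q84E over wild-type ATP11A was 0.13, with 30 above 0, and like that of the brightest probe sets it is about 0.14 lower with a common median. For wild-type ATP11A over parental their median was 0.038, with 23 above 0, lower than the 0.12 of the brightest probe sets. Of all genes, 59.7% were above 0 for Q84E over parental, 58.1% for Q84E over wild-type ATP11A and 54.2% for wild-type ATP11A over parental. All probe sets had the same sign in 19 of the 25 genes for Q84E over parental, in 16 for Q84E over wild-type ATP11A and in 14 for wild-type ATP11A over parental. No member had probe sets of opposite sign that were both past 2 errors of their own signal class.

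**Figure D4:**
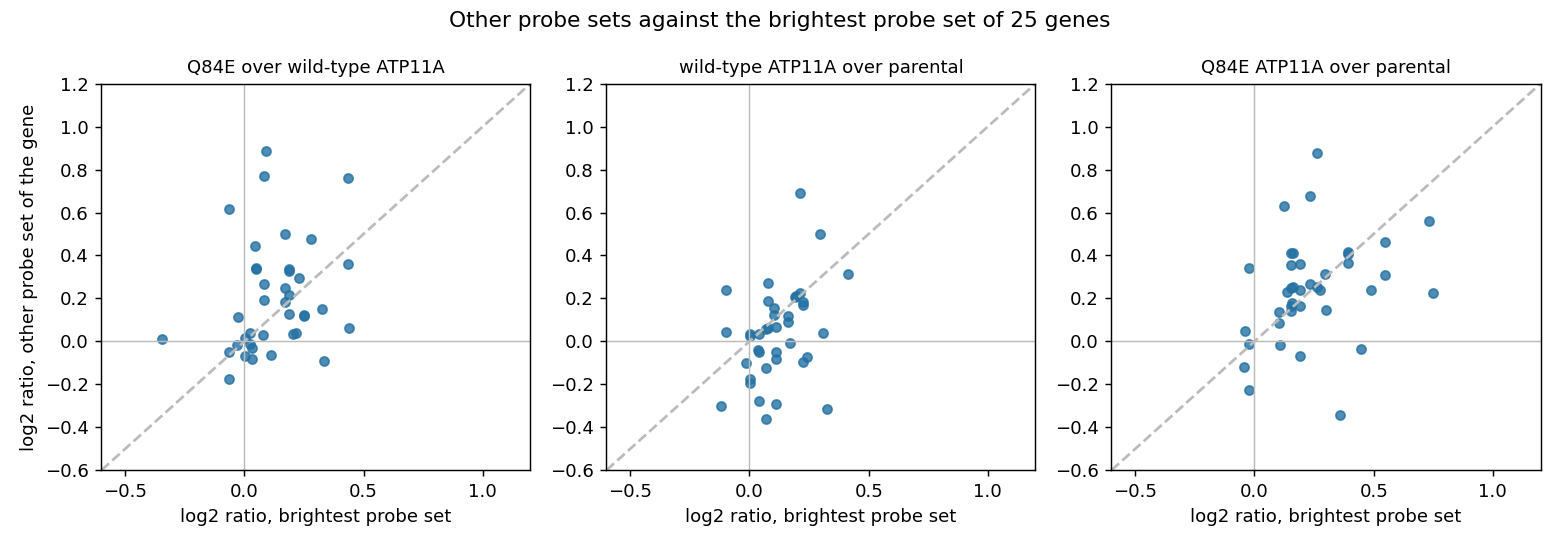
Log2 ratio of each of 39 further probe sets (vertical axis) against that of the brightest probe set of the same gene (horizontal axis), in 25 members with several probe sets above the floor; the dashed line marks equal values. For Q84E over parental 33 of 39 share the sign of the brightest probe set, for Q84E over wild-type ATP11A 30 and for wild-type ATP11A over parental 23.

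Other lists of the cell cycle were set beside the members. Genes of the mitotic machinery outside the list lay close to it. Of 35 further genes of the spindle and cytokinesis, the median log2 ratio was 0.095 for Q84E over wild-type ATP11A, 0.086 for wild-type ATP11A over parental and 0.23 for Q84E over parental, and the first turned to -0.041 with a common median. The 30 further kinetochore and checkpoint genes had 0.073 for Q84E over wild-type ATP11A, or -0.064 under a common median, 0.13 for wild-type ATP11A over parental and 0.24 for Q84E over parental cells. The 22 genes of condensin and cohesin had 0.12 for Q84E over wild-type ATP11A, or -0.021 under a common median, 0.092 for wild-type ATP11A over parental and 0.19 for Q84E over parental cells. With that scaling the 3 medians for Q84E over parental were 0.090, 0.096 and 0.048. Past 2 errors for Q84E over parental were 8 higher and 1 lower, 9 higher and 0 lower, and 9 higher and 0 lower in these 3 lists, beside 10.5% and 6.8% of all genes. For Q84E over wild-type ATP11A the furthest apart were Cenpn, a subunit of the inner kinetochore, at 0.39, Cdca2, a subunit that targets a phosphatase to chromatin, at 0.39, Aspm, a spindle pole protein, at 0.35, and Espl1, which encodes the cohesin-cleaving protease separase, at 0.36. The next in their lists were Dsn1 at -0.35, Cenpk at 0.28, Kntc1 at 0.27, Cit at 0.32, Fam83d at 0.32, Ncapd2 at 0.30, Ncaph2 at 0.26 and Ncapd3 at 0.26. The 5 probe sets of Aspm ranged from -0.042 to 0.52, the other of Cenpn gave 0.031 and the other of Ncapd2 gave -0.058.

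DNA replication genes, which are also transcribed in cycling cells but earlier, had medians near 0 on the deposited scale. With a common median that of Q84E over wild-type ATP11A was -0.14, with 7 of 39 above 0, against 33.2% of all genes. On the deposited scale the 39 genes had medians of 0.00089 for Q84E over wild-type ATP11A, 0.0034 for wild-type ATP11A over parental and -0.0100 for Q84E over parental. In the last, 19 of 39 were above 0, and with a common median its median was -0.15, with 6 of 39 above 0. Of all genes, 59.7% were above 0 for Q84E over parental, or 36.9% with a common median. Past 2 errors for that ratio were 3 higher and 2 lower, against 10.5% and 6.8% of all genes. The furthest for Q84E over wild-type ATP11A were Ung, uracil DNA glycosylase, at -0.48, Tyms, thymidylate synthase, at 0.36, whose other probe set above the floor gave -0.33, Pole, a DNA polymerase, at 0.28 and Cdc45, a helicase subunit, at 0.25. The difference between the members and the DNA replication genes was not tested. The 17 genes of the APC/C had a median of 0.12 for Q84E over wild-type ATP11A, or -0.020 with a common median, of -0.011 for wild-type ATP11A over parental, and of 0.085 for Q84E over parental cells, or -0.057 with a common median. Among them were Anapc15 at -0.32, Anapc10 at -0.30, Anapc2 at 0.28 and Ube2s, which extends ubiquitin chains with the APC/C, at 0.20 for Q84E over wild-type ATP11A.

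**Figure D5:**
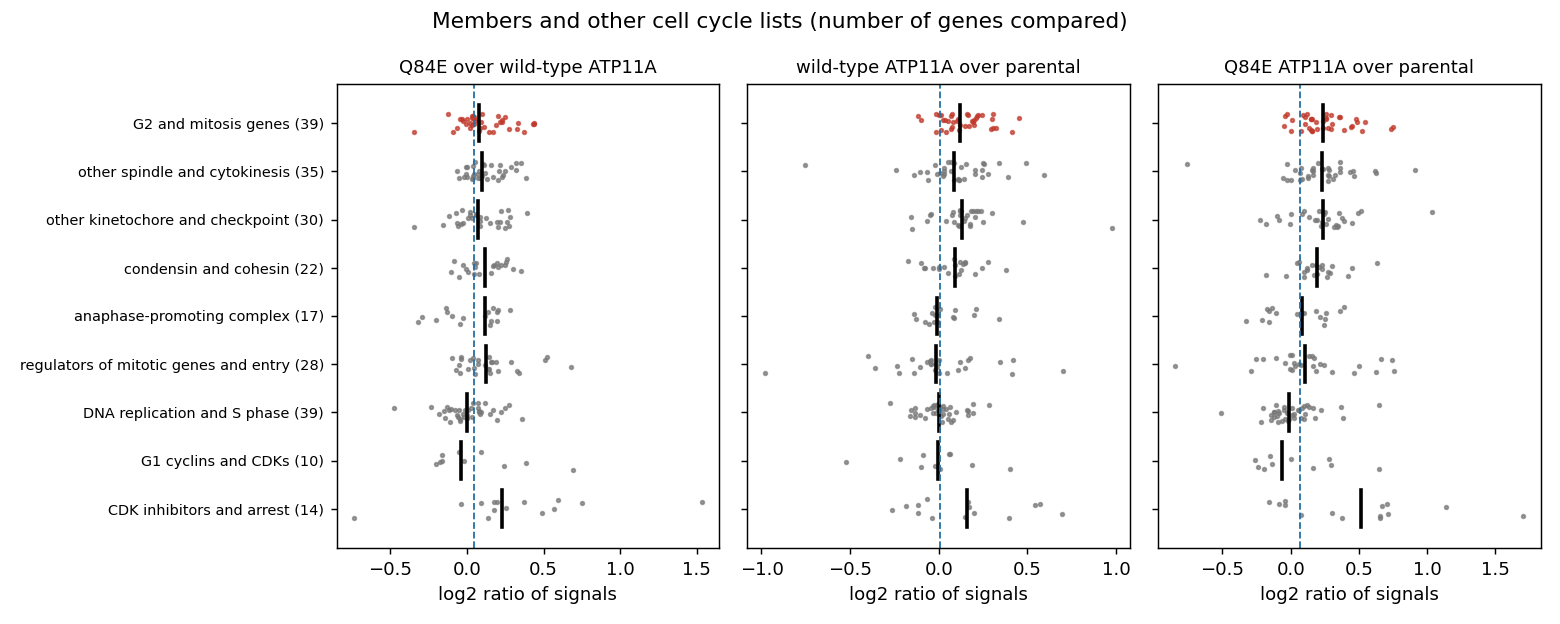
Log2 ratios of single genes (points) and their median (black bar) for the members and 8 other cell cycle lists, with the number of genes compared in brackets; the dashed line is the median of all compared genes. The members, the other spindle and kinetochore genes and condensin and cohesin have medians of 0.19 to 0.24 for Q84E over parental, and DNA replication genes have -0.0100; with the arrays set to a common median all Q84E ratios move down by about 0.14.

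The factors that bind mitotic promoters did not share 1 order. Foxm1, an activator of these genes, had 494 with Q84E ATP11A, 344 with wild-type ATP11A and 401 in parental cells, lowest with wild-type ATP11A. Its log2 ratio of Q84E over wild-type ATP11A was 0.52, and its 3 probe sets above the floor ranged from -0.059 to 0.52. Mybl2 had 1462 in Q84E, 1393 in wild-type ATP11A and 1787 in parental cells, highest in parental cells, unlike most members. Lin37, a subunit of DREAM, had 0.51 for Q84E over wild-type ATP11A, Rbl2, the pocket protein p130 of DREAM, 0.34, and Rb1, the retinoblastoma protein, 0.68. Wee1, the kinase that inhibits CDK1, had 1810.1 (Q84E), 1619 (wild-type ATP11A) and 1615 (parental). The whole list holds 28 regulators of mitotic genes and of entry into mitosis, kinases such as Wee1 among them, so not all bind promoters. Its median was 0.13 for Q84E over wild-type ATP11A, or -0.010 with a common median, and -0.016 for wild-type ATP11A over parental. For Q84E over parental cells it was 0.11, or -0.037 with a common median.

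Genes of the G1 phase and of arrest were read in the same way. The 10 G1 cyclins and CDKs had medians of -0.036 for Q84E over wild-type ATP11A, -0.0061 for wild-type ATP11A over parental and -0.066 for Q84E over parental cells, and with a common median the first was -0.17 and the last -0.21. Among them were Cdk2 at 0.38, Ccne1, cyclin E1, at 0.24, Cdk7 at -0.20 and Ccnh at -0.18 for Q84E over wild-type ATP11A. The other Ccne1 probe set gave -0.49, and dimmer probe sets above the floor reached 0.18 for Cdk7 and 0.31 for Ccnh. The 14 compared genes of CDK inhibition and arrest had 0.23 for the first of these ratios, or 0.089 with a common median, 0.16 for the second and 0.52 for the last. For Q84E over parental 10 of the 14 were above 0 and 4 below, while 59.7% of all genes were above 0. Their highest member was Ccng2, a cyclin G linked to arrest, with 1176 with Q84E ATP11A, 407 with wild-type ATP11A and 361 in parental cells, by 2 probe sets at log2 ratios of 1.41 and 1.53 for Q84E over wild-type ATP11A. Btg2 and Btg1, antiproliferative genes, had 0.75 and 0.60, and Gadd45b, a stress-induced gene, -0.74. Cdkn1b, which encodes the inhibitor p27, had 958 with Q84E, 869.8 with wild-type ATP11A and 988 in the parental line, with the wild-type ATP11A array lowest. Cdkn1a, which encodes p21, had 57.7 in Q84E, 24.5 in wild-type ATP11A and 54.8 in parental cells, just above the floor on the Q84E and parental arrays and under it on the wild-type ATP11A array, so no fold is given. The medians for Q84E over parental were thus above 0 for both lists, at 0.52 for arrest and 0.23 for mitosis, or 0.37 and 0.092 with a common median.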

How the data were processed

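Each of 3 samples of 250 ng total RNA was hybridised to 1 array. The deposited intensity values are linear signals of 45101 probe sets that the authors made with MAS5, as the submitters' processing notes name it; its version is not given in the sources used here. Without the lowest and highest 2% of signals, all arrays had the same mean, and that scaling was kept. MAS5 applies a single factor per array, so a wide shift in 1 direction can be spread over all genes. A table of the platform's annotation gave 34958 probe sets exactly 1 gene symbol, 932 several (not named) and none for 9211. The members had 89 probe sets.

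Signals under the median of their array (55.5, 50.5 and 50.3 for Q84E, wild-type ATP11A and parental) were set to it, log2 ratios were taken, and genes under it on all 3 arrays were left out. The probe set error used the 2 brightest probe sets of a gene, within 4-fold of each other. No test was possible; genes were counted by size. The number of arrays limits the precision. Members, lists and motifs were chosen with earlier results of these data known. Named by rule were the 8 highest and 8 lowest members per comparison, 4 genes per other list, and Foxm1, Mybl2, Wee1, Cdkn1a, Cdkn1b and Ccng2. Promoters came from RefSeq, GRCm38.p6; no genome build is given for the arrays. Steps were tested on simulated data. Alternatives were scaling, choice of probe set, floor and a pseudocount of 32. Python 3.11.15, numpy 2.4.6 and pandas 2.3.3 were used.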

Additional observations from a re-analysis of the deposited data

How the results depend on the processing

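No paired analysis was possible because each group has 1 array. With 1 array per group the spread between cultures is unknown. With a common median over all probe sets the median log2 ratio of the members reversed to -0.060 for Q84E over wild-type ATP11A and moved to 0.092 for Q84E over parental; 15 members were above 0 for Q84E over wild-type ATP11A, 15 were highest on the Q84E array and 12 had the graded order, while past 2 errors 3 were higher and 3 lower for Q84E over wild-type ATP11A and 6 higher for Q84E over parental. Centred on the median of all genes, the medians were 0.030 for Q84E over wild-type ATP11A and 0.17 for Q84E over parental. In the first, 5 members were higher and 1 lower past 2 errors, against 7.36% and 8.27% of all genes. Quantile normalization gave 0.11 for Q84E over wild-type ATP11A and 1 member lower past 2 errors, against 6.39% of all genes. For that ratio the median was 0.12 with the mean of all probe sets, 0.10 with the 30 members that have a probe set without a shared-sequence suffix and 0.053 with the second brightest probe set, which gave 0.091 for wild-type ATP11A over parental. Past 2 errors for Q84E over wild-type ATP11A, 5 were higher with the mean and 5 without shared-sequence probe sets, against 8.63% and 9.52% of all genes. For wild-type ATP11A over parental these gave 5 and 4, against 5.63% and 5.45% of all genes, and the second brightest probe set 5, against 5.56%. An error from the median absolute deviation, added after seeing the data, gave 13 in that comparison, against 8.05% of all genes. With that error 1 member was lower for Q84E over wild-type ATP11A, against 7.04%. The mean of all probe sets put 1 member 1.5-fold higher for Q84E over wild-type ATP11A. It put 1 past 2 errors lower and 1.5-fold lower in each comparison, and 1 member 2-fold lower for wild-type ATP11A over parental. That mean takes in probe sets under the floor on at least 1 array. Among these are 1 of Aurka, at 49.0 (Q84E), 18.7 (wild-type ATP11A) and 76.5 (parental), and 1 of Cenpa, at 2.3, 13.8 and 19.4 in that order. With the second brightest probe set 2 were 1.5-fold higher for Q84E over wild-type ATP11A and 1 was 1.5-fold lower for wild-type ATP11A over parental. By the second brightest probe set, Anln reversed to -0.31 for wild-type ATP11A over parental and -0.34 for Q84E over parental, and Prc1 to -0.072 and -0.037. The cause was not tested. Of 1026 values of single members under the alternatives, 871 moved by less than 1 probe set error, 151 by more, and those 4 changed sign from past 2 errors. The median of wild-type ATP11A over parental lay between 0.091 and 0.12 under every alternative run. In the run with the second brightest probe set, the 13 members with 1 probe set kept that one. The 39 further probe sets above the floor, taken alone, had a median of only 0.038 for that ratio.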

Other observations

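Among mitotic genes outside the member list, 3 that lay far from parental cells were named after their values were seen. Bora, an activator of Aurora A and through it of Polo-like kinase 1, had signals of 522 with Q84E ATP11A, 524 with wild-type ATP11A and 885 in parental cells. Its second probe set had 628 (Q84E), 391.5 (wild-type ATP11A) and 737 (parental), so both put wild-type ATP11A cells below parental cells, at log2 ratios of -0.76 and -0.91, and they differed on Q84E cells, at -0.76 and -0.23 over parental. Bora lies on chromosome 14.

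Cit, which encodes citron kinase of the midbody, had 427 with Q84E, 342 with wild-type ATP11A and 227 in the parental line, with a log2 ratio of 0.91 for Q84E over parental. A second probe set, with 436 in Q84E, 295 in wild-type ATP11A and 239 in parental cells, gave 0.87, and 2 dimmer ones gave 0.28 and -0.019. Pmf1, a subunit of the MIS12 kinetochore complex, was 2.05-fold higher for Q84E over parental, with 716 and 688 in the DKO lines against 349 in parental cells. Its other probe set, with 374 (Q84E), 447 (wild-type ATP11A) and 407 (parental), gave a log2 ratio of -0.12, so that difference rests on 1 probe set of a kind that can share sequence with other genes.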
